A study of Mus musculus with 25 samples.

Results

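The CD3 complex genes are Cd3e, Cd3d, Cd3g and Cd247, which encode the epsilon, delta, gamma and zeta signalling chains of the T cell receptor. They were chosen by name, 4 of 21887 protein-coding genes with a position in RefSeq (GRCm38.p6, the build mm10). Each was examined over its gene body plus 30 kb on both sides, and this stretch is called its window. The study asked how the T cell transcription factor TCF-1 takes part in reorganising the folding of the genome. Chromatin immunoprecipitation and sequencing of 2 mouse cell lines had given 25 lists of peaks.

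Scid.adh is a thymic lymphoma line from an immunodeficient mouse that resembles T cell precursors at the DN3 stage, and its cells are called DN3 cells here. TCF-1 knockout (KO) DN3 cells had 2 lists each for CTCF, SMC1, NIPBL and H3K27ac. DN3 cells with the empty vector (EV), which the labels also call wild type, had 2 lists each for the same 4 antibodies and for TCF-1. NIH-3T3 is a mouse fibroblast line. Fibroblasts induced to express TCF-1 had 2 lists for CTCF, 1 for SMC1 and 1 for TCF-1, and untreated fibroblasts had 2 for CTCF and 1 for SMC1. Each cell type is thus 1 cell line, and how the knockout and the induction were made, and how many clones or cultures they cover, is not given in the sources used here. No label says that lists of 1 group came from separate cultures. A p-value here therefore measures the spread between these lists alone, and that spread may be technical.

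The receptor's own alpha and beta chains bind antigen but have no signalling tails, so the signal passes through the CD3 chains, whose tails are phosphorylated by Lck and then bind ZAP-70. The epsilon chain pairs with the delta or the gamma chain, and zeta, encoded on another chromosome, pairs with itself. Precursors at the DN3 stage need the same chains for the pre-T cell receptor, which holds a freshly rearranged beta chain. CTCF bounds chromatin loops, SMC1 is a subunit of the cohesin ring that forms them, NIPBL loads cohesin, and H3K27ac, an acetylated histone, marks active promoters and enhancers.

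The promoters of the 4 genes are shown because peaks at their starts separate DN3 cells from fibroblasts in what follows. Sequences are from RefSeq (GRCm38.p6), 250 bases before to 50 after each gene's start, on the gene's own strand, and all 4 genes had an entry. They are chr9:44980382-44980681 (minus strand) for Cd3g, chr9:44981536-44981835 (plus) for Cd3d, chr9:45009562-45009861 (minus) for Cd3e and chr1:165788431-165788730 (plus) for Cd247. Capitals mark every match, on either strand, to CTTTGA, the letters bound by TCF and LEF factors, or to AGGAAGT, the letters bound by ETS factors.
Cd3g: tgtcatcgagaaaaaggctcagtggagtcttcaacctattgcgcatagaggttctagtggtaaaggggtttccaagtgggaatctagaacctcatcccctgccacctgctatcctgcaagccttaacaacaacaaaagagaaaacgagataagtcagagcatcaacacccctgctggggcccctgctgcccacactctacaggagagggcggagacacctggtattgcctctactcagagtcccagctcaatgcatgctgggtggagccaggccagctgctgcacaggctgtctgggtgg
Cd3d: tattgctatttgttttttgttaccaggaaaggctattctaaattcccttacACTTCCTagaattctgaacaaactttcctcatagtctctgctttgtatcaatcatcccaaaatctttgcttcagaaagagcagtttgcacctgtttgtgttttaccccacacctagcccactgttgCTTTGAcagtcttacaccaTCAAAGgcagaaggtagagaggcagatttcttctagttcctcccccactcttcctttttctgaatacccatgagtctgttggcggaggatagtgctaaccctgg
Cd3e: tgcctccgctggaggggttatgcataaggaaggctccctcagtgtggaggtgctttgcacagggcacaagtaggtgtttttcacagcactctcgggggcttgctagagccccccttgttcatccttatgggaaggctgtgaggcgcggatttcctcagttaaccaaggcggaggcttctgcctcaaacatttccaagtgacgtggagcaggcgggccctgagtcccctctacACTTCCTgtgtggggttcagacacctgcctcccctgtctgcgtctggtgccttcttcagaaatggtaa
Cd247: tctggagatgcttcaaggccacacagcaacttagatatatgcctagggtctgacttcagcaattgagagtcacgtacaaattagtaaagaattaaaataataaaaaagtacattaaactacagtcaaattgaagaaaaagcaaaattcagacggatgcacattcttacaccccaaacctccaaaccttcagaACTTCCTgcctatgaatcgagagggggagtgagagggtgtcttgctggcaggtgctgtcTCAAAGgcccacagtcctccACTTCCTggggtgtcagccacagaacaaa
Positions of matches are counted from the gene start at 0 to the first base of the match, negative upstream. The Cd3d promoter held 2 TCF/LEF matches, at −73 and −54, and 1 ETS match at −199. The Cd247 promoter held 1 TCF/LEF match at 1 and ETS matches at −58 and 21. Cd3e held 1 ETS match at −18, and Cd3g held neither motif. No printed match overlaps another. Of 21263 RefSeq promoters of the same length, 14.4% held the TCF/LEF letters and 9.07% the ETS letters. TGTGGT, bound by RUNX factors, was in 15.0% of promoters and in none of the 4 shown. The motifs were chosen after the sequences had been seen, and a match is letters only, not a measured site.

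Cd3g (chr9:44969572-44980431), Cd3d (chr9:44981769-44987052) and Cd3e (chr9:44998735-45009663) lie side by side, with the starts of Cd3g and Cd3d facing apart across a gap of 1.34 kb. Their windows therefore overlap. The windows of Cd3d and Cd3g share 58.7 kb, or 89.9% of the shorter one, those of Cd3e and Cd3d share 48.3 kb, and those of Cd3e and Cd3g share 41.7 kb. Values of these 3 genes rest largely on the same peaks and are not 3 separate observations, so values are also given for their joint stretch, the Cd3 cluster (chr9:44939572-45039663). Cd247 (chr1:165779952-165871153) stands alone, and its promoter entry starts inside the annotated gene, at chr1:165788681.

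Covered kb is the length of a window that lies under peaks of a list. Lists differ in length, so it was also divided by the total length under peaks of the list, in bp per Mb, called the share of the list. Peaks covered 16.6 to 27.8 Mb of the genome in DN3 CTCF lists and 17.8 to 37.6 Mb in fibroblast CTCF lists, and 37.5 to 56.4 Mb in DN3 SMC1 lists and 94.4 to 97.7 Mb in fibroblast ones. NIPBL lists covered 4.85 to 19.5 Mb, the longest being KO replicate 1, and H3K27ac lists 89.5 to 91.6 Mb. No read totals are in the lists, so depth is unknown, and a missing peak is only one that was not called. Of 12 markers of DN3 precursors with a promoter entry, 11 had H3K27ac at the promoter in all 4 lists, against 0 of 3 for B cells, 0 of 4 for myeloid cells and 0 of 5 for fibroblasts. The 4 CD3 genes are among the 11, so this check is partly their own result. Of the 4 myeloid promoters, 3 had H3K27ac in no list. Groups of lists are called different where their ranges do not overlap, and higher or lower is used of such values only. All windows with any coverage were treated alike, and the share of them called in the same direction is given as background. Log2 ratios, and medians of them over all windows, leave out windows where a group had no coverage.

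**Figure D1:**
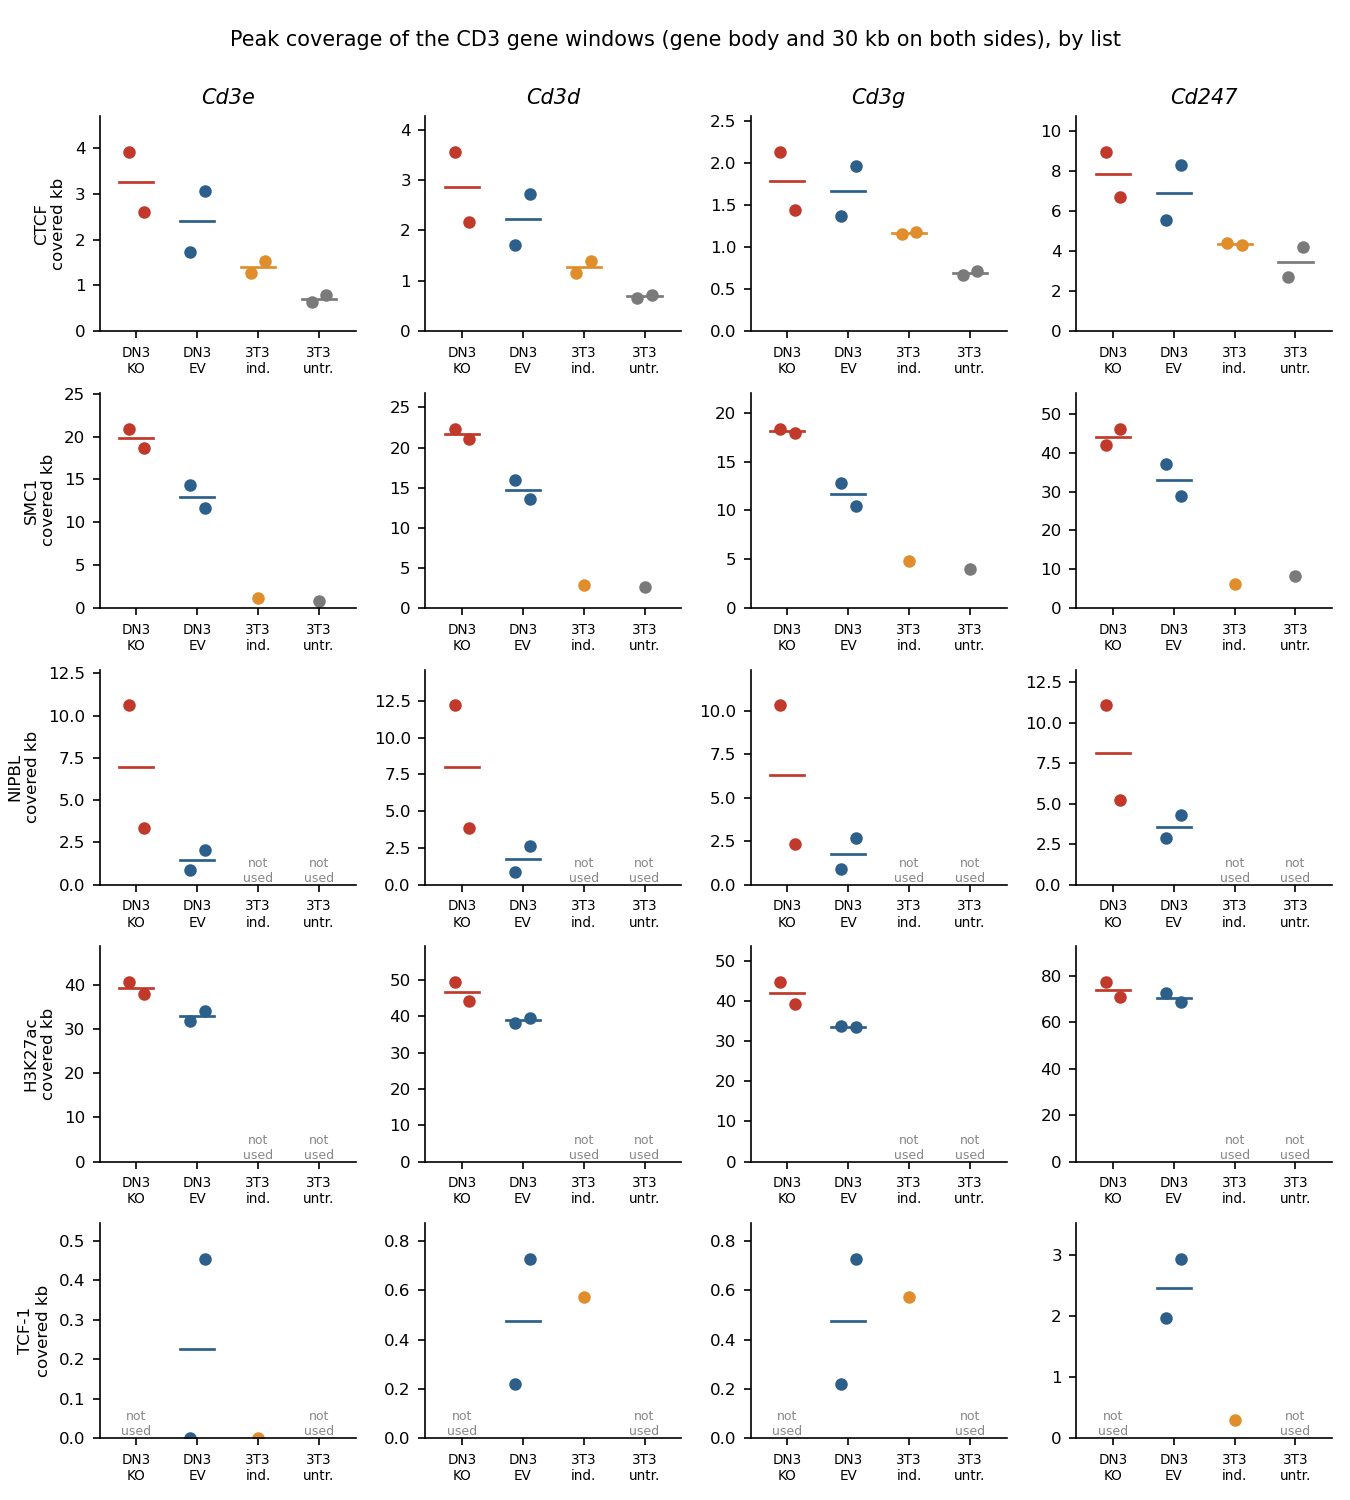
Kilobases under peaks in the window of each CD3 gene (columns) for each antibody (rows). Points are single lists, bars are means of 2 lists, and y axes start at 0. SMC1 coverage at Cd3e is 11.6 to 20.9 kb in the 4 DN3 lists and 0.807 to 1.11 kb in the 2 fibroblast lists.

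In DN3 cells with and without TCF-1 the CD3 genes lay in acetylated chromatin. At the start of Cd3g and Cd3d, which share 1 stretch of H3K27ac, the peak was 17336 and 11041 bp wide in the KO lists and 11380 and 12407 bp wide in the EV lists. It covered the whole of Cd3d and the whole gap to Cd3g in all 4 lists. Its −log10 q-value, the authors' own measure, was 38.5 and 42.0 in the KO lists and 53.5 and 49.0 in the EV lists, above 84.8% and 87.4% of the peaks of the KO lists and above 91.0% and 90.2% of those of the EV lists. Both the q-values on this scale and the ranks were lower in the KO lists. Lists were called separately, and a change in peak strength between KO and EV was not tested.

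The start of Cd3e had a separate H3K27ac peak of 8580 and 14654 bp in the KO lists and 6743 and 10987 bp in the EV lists. The authors' −log10 q-value there was 41.1 and 27.8 in KO and 39.2 and 28.6 in EV. The acetylation at Cd247 was the strongest of the 4 in every list, with −log10 q-values of 75.5 and 77.5 in KO and 84.5 and 73.8 in EV. Acetylation also ran through most of the Cd247 gene body past its start, with 62.5 and 58.6 kb of 82.5 kb covered in KO and 59.2 and 56.6 kb in EV. The promoters of all 4 genes thus carried H3K27ac in each DN3 list.

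Cohesin was called at the same places. SMC1 peaks overlapped all 4 promoters in all 4 DN3 lists, and at Cd247 the peak was 2468 and 3273 bp wide in KO and 1849 and 2329 bp in EV, wider than at least 98.2% of the peaks of its list. NIPBL was called at the Cd3e promoter in all 4 lists and at Cd247 in 1 KO and 2 EV lists. It was called at Cd3g in 1 KO and 1 EV list and at Cd3d in 1 KO list. CTCF was called at the Cd247 promoter in all 4 lists, at Cd3e in 1 KO and 2 EV lists, at Cd3g in 1 KO list, and at Cd3d in none. No fibroblast list of CTCF, SMC1 or TCF-1 held a peak at any of the 4 promoters. The share of all promoters with such peaks is not given here. The promoter calls, of H3K27ac too, are thus not shown to be particular to the CD3 genes.

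**Figure D2:**
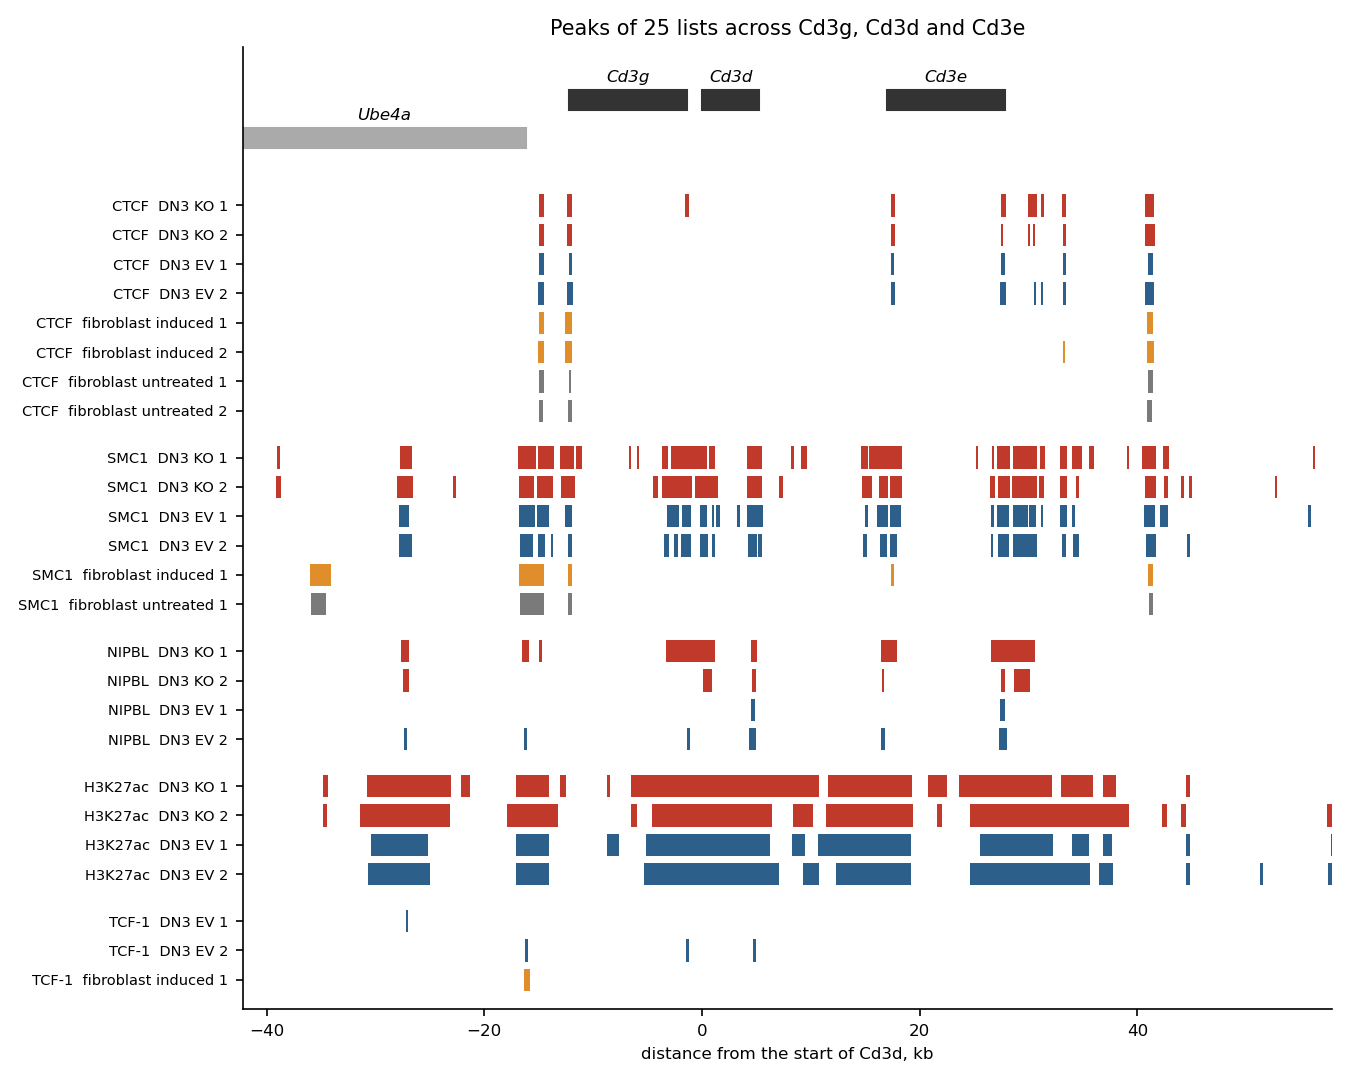
Peaks of every list (rows, with KO above EV and induced above untreated) across Cd3g, Cd3d and Cd3e, by distance in kb from the start of Cd3d. Bars are peaks, drawn at a minimum width so that short ones stay visible. H3K27ac runs unbroken across Cd3d in all 4 DN3 lists, and SMC1 peaks inside and between the 3 genes are missing from the fibroblast lists except at the end of Cd3g and, in induced fibroblasts, at the end of Cd3e.

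DN3 cells had more cohesin than fibroblasts at all 4 genes. At Cd3e, the chain shared by all CD3 pairs, SMC1 peaks covered 20.9 and 18.7 kb in KO and 14.4 and 11.6 kb in EV DN3 cells, against 1.11 kb in induced and 0.807 kb in untreated fibroblasts. At Cd3d the values were 22.4, 21.1, 15.9 and 13.6 kb in the same DN3 lists, against 2.90 and 2.57 kb in fibroblasts. No DN3 list came near a fibroblast list at either gene.

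Cd3g, next to Ube4a, a gene of the ubiquitin pathway, had the most cohesin in fibroblasts of the 3. SMC1 covered 18.4, 17.9, 12.8 and 10.5 kb of its window in DN3 cells (KO, then EV), against 4.80 kb in induced and 3.94 kb in untreated fibroblasts. Cd247, the zeta chain gene, had 42.0, 46.3, 37.3 and 28.9 kb in DN3 cells, against 6.28 and 8.18 kb in fibroblasts. The groups did not overlap at either gene.

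The log2 ratio of mean SMC1 coverage, DN3 over fibroblasts, was 4.10 at Cd3e, 2.74 at Cd3d, 1.77 at Cd3g, 2.42 at Cd247 and 2.08 over the Cd3 cluster, while the median over all windows was −0.77. All 4 genes were higher in DN3 cells, as were 10.1% of all windows (43.8% by share of the list, where the 4 genes were higher too). Of windows with coverage in both lines, 0.242% had a larger ratio than Cd3e and 2.19% a larger one than Cd3g. A further 1117 of 19293 windows had coverage in 1 line only, so they have no ratio and are not ranked. With 4 lists against 2 the exact 2-sided permutation p was 0.133 for each gene, the smallest possible, and 0.186 after Benjamini-Hochberg adjustment over all windows. A fit across all windows with limma gave adjusted p of 4.28e-06 at Cd3e, 1.86e-05 at Cd3d, 0.000439 at Cd3g and 4.08e-05 at Cd247. By that fit, 1487 of 19293 windows passed an adjusted p of 0.05 with more SMC1 in DN3 cells, and 10488 with less. Line, handling and library cannot be told apart in this comparison, since each cell type is 1 line. At flanks of 100 kb the ratio was smaller, 1.21 at Cd3e and 1.01 over the cluster.

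**Figure D3:**
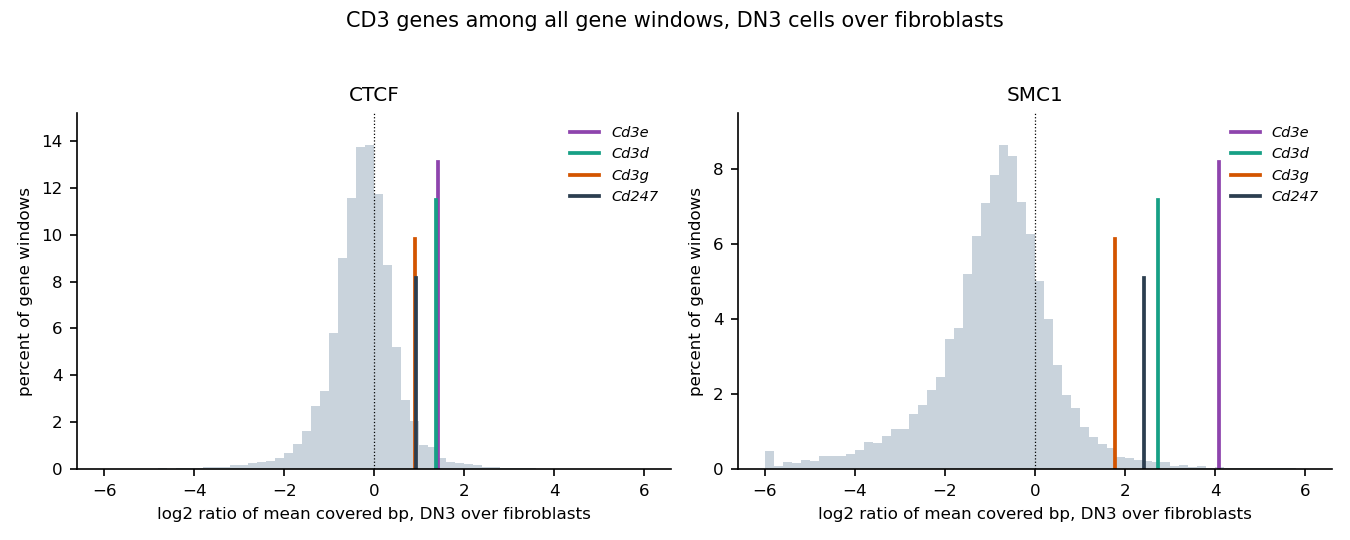
Histograms of the log2 ratio of mean covered bp, DN3 over fibroblasts, over gene windows with coverage in both lines, in percent of those windows, for CTCF and SMC1. The end bins hold all values beyond them, and coloured lines, whose heights carry no value, mark the CD3 genes. They stand at 0.90 to 1.42 for CTCF and at 1.77 to 4.10 for SMC1, right of most windows.

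CTCF divided the cluster into an outer frame common to both lines and inner sites of DN3 cells. Sites at chr9:44966729-44967256 and chr9:44969402-44969925, beside the end of Cd3g, and at chr9:45022471-45023362, 13306 bp before the start of Cd3e, were in all 4 DN3 and all 4 fibroblast lists. Sites at the end of Cd3e (chr9:44999121-44999530) and at its start (chr9:45009181-45009723) were in all 4 DN3 lists and no fibroblast list. Between Cd3d and Cd3e, and within Cd3d, no list held CTCF.

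At Cd247 the inner sites of DN3 cells were at the start (chr1:165788345-165788938), 869 bp past it (chr1:165789232-165789868) and 56610 bp past it (chr1:165845002-165845581), each in all 4 DN3 and no fibroblast list. Another 5 sites of the Cd247 window were in all 8 CTCF lists, 2 of them near the neighbour Creg1, 1 at the annotated upstream end of Cd247 and 2 in its last part. Within the Cd3e gene body, CTCF covered 0.820 and 0.596 kb in KO, 0.670 and 0.865 kb in EV, and 0 kb in each fibroblast list. The sites in all 4 DN3 lists and no fibroblast list thus lay at or inside Cd3e and Cd247. The share of all CTCF sites of the genome with this pattern, or in all lists, is not given here. Neither pattern is thus shown to be particular to the CD3 genes.

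Over the whole Cd3e window CTCF covered 3.93 and 2.61 kb in KO and 1.73 and 3.08 kb in EV DN3 cells, against 1.28 and 1.54 kb in induced and 0.632 and 0.789 kb in untreated fibroblasts. KO and EV overlapped, and both stood above the induced lists, which stood above the untreated ones. At Cd247 CTCF covered 8.97 and 6.73 kb in KO and 5.54 and 8.30 kb in EV, against 4.41 and 4.32 kb in induced and 2.72 and 4.21 kb in untreated fibroblasts. The order of the groups was the same at Cd247, with the lower induced list just above the higher untreated one.

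CTCF coverage was higher in DN3 cells than in fibroblasts at all 4 genes, against 3.51% of all windows (19.4% by share of the list, where all 4 were higher too). Log2 ratios were 1.42 at Cd3e, 1.37 at Cd3d, 0.90 at Cd3g and 0.92 at Cd247, beside a median of −0.23 over all windows. The exact 2-sided permutation p was 0.0286 for each gene with 4 lists against 4, the smallest possible, and 0.193 after adjustment over all windows. Limma gave adjusted p of 0.0232 at Cd3e, 0.0251 at Cd3d, 0.117 at Cd3g and 0.0466 at Cd247. In limma 341 of 19124 windows passed 0.05 with more CTCF in DN3 cells, and 1322 with less. At Cd3e, Cd3d and Cd3g the lists of the lines overlapped when only the wider peaks of each list were used and when the flanks were 100 kb, where the ratio was 0.55 at Cd3e and 0.40 at Cd3d, and at Cd3g also with flanks of 10 kb or none. The neighbour Ube4a, whose window overlaps those of all 3 genes, had 4.20, 3.85, 2.10 and 3.39 kb of CTCF in DN3 cells, against 5.16, 4.66, 2.08 and 2.13 kb in fibroblasts, and its groups overlapped.

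**Figure D4:**
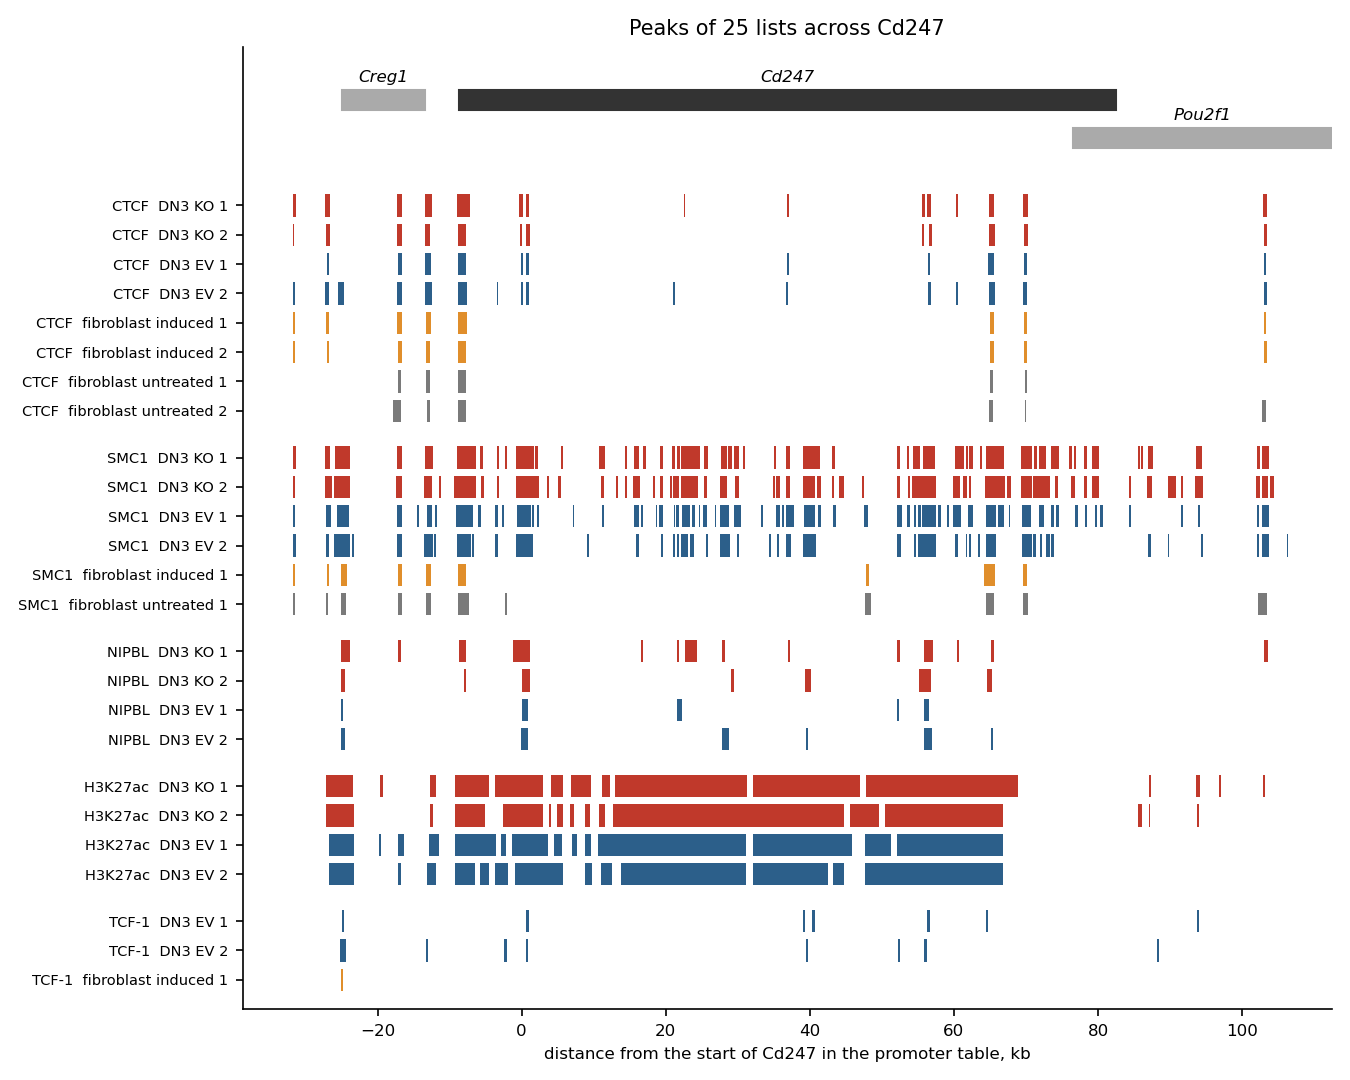
Peaks of every list across Cd247, by distance in kb from its start in the promoter table, with rows and colours as in the map of Cd3g, Cd3d and Cd3e. CTCF at the start, and 869 bp and 56610 bp past it, is in all 4 DN3 lists and no fibroblast list, and the broad acetylation ends before the end of the gene in all 4 H3K27ac lists.

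In EV DN3 cells, TCF-1 peaks were more numerous in the Cd247 window than in that of the Cd3 cluster. The Cd247 window held 7 and 8 peaks in the EV lists and 1 in the list of induced fibroblasts, while the cluster held 1 and 3 in EV and 1 in induced fibroblasts. In EV DN3 cells, TCF-1 peaks covered 1.98 and 2.94 kb of the Cd247 window, 0.222 and 0.727 kb of the Cd3d and Cd3g windows, and 0 and 0.454 kb of the Cd3e window. In induced fibroblasts they covered 0.299 kb at Cd247, 0.572 kb at Cd3d and Cd3g, and 0 kb at Cd3e. As a share of the list, Cd247 had 1019 and 1440 bp per Mb in EV and 17.4 in induced fibroblasts. The TCF-1 lists covered 1.94 and 2.04 Mb in EV and 17.2 Mb in induced fibroblasts, so these shares also carry the difference in list length. The same contrast over all windows is not given here. With 1 fibroblast list there was no test, and TCF-1 lists of KO or untreated cells are not analysed here.

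No TCF-1 site of the Cd3 cluster was in both EV lists. Of its 4 sites in either list, chr9:44980353-44980552 lay at the start of Cd3g, chr9:44986469-44986722 inside Cd3d near its end, and chr9:44954558-44954779 in Ube4a. The remaining site, chr9:44965543-44965815, lay across the border of the Ube4a gene body that is nearest Cd3g. The site inside Cd3d lay in SMC1, NIPBL and H3K27ac peaks of all KO and EV lists. The site at that border of Ube4a was also in the fibroblast list.

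Cd247 had 2 TCF-1 sites in both EV lists and 13 in either, and those in both numbered 4 when peaks up to 500 bp apart were merged. Of the 2, one, chr1:165789288-165789636, lay 781 bp past the start and carried CTCF, SMC1, NIPBL and H3K27ac in both KO and both EV lists, so these were called there with or without TCF-1. No fibroblast list held TCF-1 or SMC1 there. The other, chr1:165763476-165764276, lay at the neighbour Creg1 and was in the fibroblast list too. Over the genome, 3107 of 7161 merged TCF-1 sites (43.4%) were in both EV lists.

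In KO cells, acetylation covered more of the Cd3 cluster than in EV cells. H3K27ac covered 52.7 and 51.2 kb of the cluster in the KO lists, against 40.1 and 42.8 kb in the EV lists. Lists differed without overlap at the Ube4a side of Cd3g, where 12.6 and 13.3 kb of 30 kb were covered in KO, against 8.33 and 8.72 kb in EV. They also did in the body of Cd3e, with 8.42 and 6.25 kb in KO, against 4.66 and 5.53 kb in EV, and between Cd3d and Cd3e, with 10.9 and 8.56 kb in KO, against 8.44 and 7.94 kb in EV. Cd3d and its gap to Cd3g, fully covered in each list, did not contribute.

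Gene by gene, H3K27ac covered 40.7 and 37.9 kb in KO and 31.8 and 34.1 kb in EV at Cd3e, and 49.3 and 44.1 kb in KO and 38.1 and 39.5 kb in EV at Cd3d. At Cd3g it covered 44.7 and 39.3 kb in KO and 33.7 and 33.6 kb in EV. These 3 genes, with largely shared peaks, were higher in KO. At Cd247 the lists overlapped, with 77.2 and 70.7 kb in KO and 72.7 and 68.5 kb in EV.

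Over all windows, 27.7% were higher in KO for H3K27ac and 34.1% were lower, and by share of the list 27.9% were higher, with the same 3 genes. Log2 ratios were 0.26 at Cd3e, 0.27 at Cd3d, 0.32 at Cd3g and 0.07 at Cd247, against a median of −0.02 over all windows. With 2 lists against 2 the smallest exact 2-sided p is 0.333, which the 3 genes reached (0.540 after adjustment), and no exact test of KO against EV can pass 0.05. Limma gave adjusted p of 0.0572 at Cd3e, 0.0614 at Cd3d, 0.0474 at Cd3g, 0.515 at Cd247 and 0.0168 over the cluster. In limma 1397 of 15023 windows passed 0.05 with more H3K27ac in KO, and 1714 with less. The call was lost at Cd3d with flanks of 10 kb or none, at Cd3g with none, and at Cd3e and Cd3d by number of peaks. Over gene bodies and 2 kb on both sides, summed H3K27ac coverage of 8 fibroblast markers was also higher in KO, 21.2 to 22.0 kb against 12.4 to 13.2 kb in EV, and that of 6 myeloid markers was 15.7 to 16.8 kb in KO against 12.2 to 13.3 kb in EV. For 13 precursor markers, the 4 CD3 genes among them, it was 225 to 237 kb in KO and 227 to 232 kb in EV, for 6 B cell markers 2.46 to 2.54 kb in KO and 2.96 to 3.40 kb in EV, and the part of these in the result was not tested. Ube4a moved alongside, with 41.9 and 39.7 kb in KO and 32.7 and 31.5 kb in EV, as did Pou2f1, the neighbour past the end of Cd247, with 58.4 and 57.3 kb in KO and 48.2 and 50.5 kb in EV.

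SMC1 coverage was higher in both KO lists than in both EV lists at all 4 genes, but so was it in 70.8% of all windows, and 1.38% were lower. Over the Cd3 cluster SMC1 covered 25.4 and 23.6 kb in KO, against 17.9 and 14.8 kb in EV, and the values for Cd3e, Cd3d, Cd3g and Cd247 stand above. The Cd3g body had 3.44 and 3.35 kb in KO, against 1.88 and 1.72 kb in EV, and the gap between Cd3g and Cd3d had 1.34 and 1.15 kb in KO, against 0.544 and 0.574 kb in EV. In KO replicate 1 a single peak of 3310 bp spanned the starts of both genes, while each other list held separate peaks at the 2 starts.

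Log2 ratios of SMC1 coverage, KO over EV, were 0.61 at Cd3e, 0.56 at Cd3d, 0.64 at Cd3g and 0.42 at Cd247, near the median of 0.41 over all windows. Limma gave adjusted p of 0.0483, 0.0450, 0.0399 and 0.124 in the same order. In limma 2490 of 18764 windows passed 0.05 with more SMC1 in KO, and 29 with less. As a share of the list, KO and EV overlapped at all 4 genes, so 0 of 4 were higher, against 15.8% of all windows, and so they did by number of peaks, and at Cd3d with no flank. The exact p, at its smallest possible value of 0.333 for covered kb, was 0.462 after adjustment.

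NIPBL, the cohesin loader, had the largest ratios and the largest spread between lists. At Cd3e it covered 10.6 and 3.35 kb in KO, against 0.881 and 2.07 kb in EV. At Cd3d the values were 12.2 and 3.83 kb in KO and 0.881 and 2.66 kb in EV, at Cd3g 10.3 and 2.36 kb in KO and 0.881 and 2.66 kb in EV, and at Cd247 11.1 and 5.24 kb in KO and 2.87 and 4.31 kb in EV. Both KO lists were higher at Cd3e, Cd3d and Cd247, and the lists overlapped at Cd3g.

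Among all windows 26.4% were higher for NIPBL and 0.357% lower. Log2 ratios were 2.24 at Cd3e, 2.18 at Cd3d, 1.84 at Cd3g and 1.18 at Cd247, with a median of 0.78. Without KO replicate 1, the longest list, they were 1.18, 1.11, 0.42 and 0.54. Without KO replicate 2 they were 2.85 at Cd3e, 2.78 at Cd3d and 2.54 at Cd3g. Without EV replicate 1 the ratio at Cd3d was 1.59 and at Cd3g 1.25, and without EV replicate 2 those of Cd3e, Cd3d and Cd3g were 2.98, 3.19 and 2.84.

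By share of the list NIPBL was higher at Cd3e and Cd3d only of the 4, against 12.3% of windows. Shares were 542 and 386 bp per Mb in KO at Cd3e, against 182 and 213 in EV, and 624 and 442 at Cd3d, against 182 and 275. The calls at Cd3e and Cd3d were also lost by number of peaks, and that at Cd3e with no flank. All calls were lost when only the stronger peaks of each list were used and when lists were trimmed to equal length, where the lists at Cd247 turned to lower in KO and the ratio was −0.31 at Cd3e and −0.38 at Cd247. The exact p was 0.333 at Cd3e, Cd3d and Cd247 (0.923 after adjustment), and limma's adjusted p was 0.853 at all 4. KO replicate 1 held a 4541 bp peak across the starts of Cd3g and Cd3d and a 4007 bp peak at the start of Cd3e. Peaks within that last stretch were 414 and 1470 bp wide in KO replicate 2, and 461 bp in EV replicate 1 and 738 bp in EV replicate 2.

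CTCF coverage overlapped between KO and EV at all 4 genes, so 0 of 4 were higher or lower, against 42.8% and 0.687% of windows. At Cd3d CTCF covered 3.56 and 2.17 kb in KO, against 1.71 and 2.72 kb in EV. At Cd3g it covered 2.14 and 1.45 kb in KO, against 1.37 and 1.97 kb in EV. Log2 ratios were 0.44 at Cd3e, 0.37 at Cd3d, 0.10 at Cd3g and 0.18 at Cd247, with a median of 0.31, and exact p was 0.667 at each. Without KO replicate 2 the ratio at Cd3e was 0.71, and without EV replicate 2 it was 0.92. Without KO replicate 1 the ratio was 0.12 at Cd3e and −0.21 at Cd3g, and without EV replicate 1 it was 0.09 at Cd3e and −0.14 at Cd3g. With flanks of 100 kb Cd3e was higher in KO.

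As a share of the list CTCF was lower in KO at Cd3g and Cd247 and overlapped at Cd3e and Cd3d, so 0 of 4 were higher, against 17.2% of windows higher and 25.3% lower. At Cd247 the shares were 323 and 289 bp per Mb in KO, against 334 and 359 in EV. At Cd3g they were 77.0 and 62.2 in KO, against 82.8 and 85.2 in EV. The direction at these 2 genes thus depended on the scale.

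**Figure D5:**
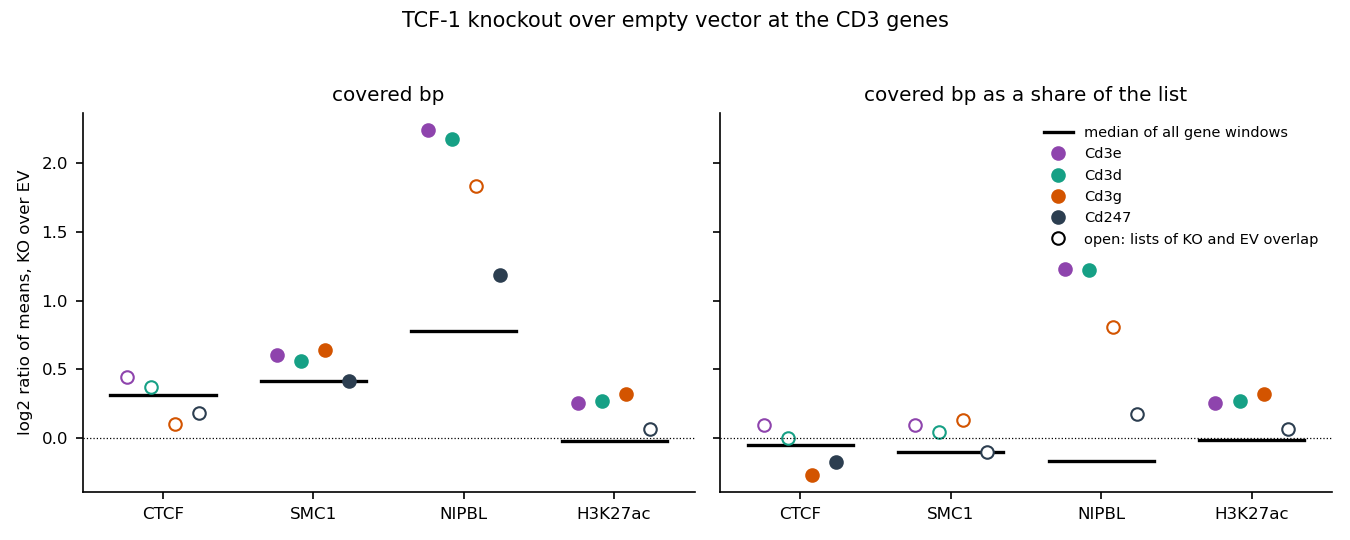
Log2 ratio of mean coverage, KO over EV, of the CD3 genes for each antibody, in covered bp (left) and as a share of the list (right). Filled points are genes whose KO and EV lists do not overlap, open points those that overlap, and black bars are medians over all gene windows that have a ratio. H3K27ac at Cd3e, Cd3d and Cd3g stands above the median on both scales, while SMC1 overlaps on the right.

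Peaks of the 4 DN3 lists of an antibody were also merged into regions, which are KO only when both KO lists and no EV list held them, and EV only in the opposite case. For CTCF, of 9 regions at the cluster and 18 at Cd247, 1 was KO only and 0 were EV only, beside 6.36% and 0.46% of all CTCF regions. It was chr1:165844241-165844609, 55744 bp past the start of Cd247 and next to a site in every DN3 list. For SMC1, of 33 regions at the cluster and 74 at Cd247, 4 were KO only and 1 EV only, beside 9.26% and 0.968% over the genome. For NIPBL, of 7 regions at the cluster and 16 at Cd247, 1 was KO only (chr1:165780032-165780990) and 0 were EV only, beside 5.88% and 0.251%. Leaving out a list loosens the rule, since fewer lists must hold or lack a region. The counts that follow can rise by that alone and are not a test of these regions. KO-only regions of SMC1 numbered 16 and 19 without KO replicate 1 or 2, and 13 and 5 without EV replicate 1 or 2, and EV-only ones 2, 2, 6 and 13 in the same order. KO-only regions of CTCF numbered 2, 3, 1 and 3 and those of NIPBL 4, 8, 1 and 5 in that order, and EV-only CTCF regions 1, 0, 3 and 0.

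H3K27ac had 13 regions at the cluster and 12 at Cd247, with 4 KO only and 1 EV only, beside 4.82% and 7.99% of all regions. One KO-only region, chr9:45002508-45004262, lay in the body of Cd3e, and chr9:44946987-44947392 lay in Ube4a. The other two, chr1:165875692-165875985 and chr1:165882333-165882829, lay beyond the end of Cd247 in Pou2f1, where H3K27ac covered 1.21 and 0.993 kb in KO and 0 kb in both EV lists. The EV-only region was chr1:165771464-165772316, in Creg1. All these H3K27ac regions are short, the longest being 1755 bp. Under the looser rule without KO replicate 1 or 2 the KO-only regions numbered 7 and 8, and without EV replicate 1 the EV-only ones numbered 2.

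Fibroblasts induced to express TCF-1 had more CTCF at all 4 genes than untreated ones, as did 91.6% of all windows. At Cd3d CTCF covered 1.16 and 1.39 kb in induced cells, against 0.665 and 0.713 kb in untreated cells. At Cd3g it covered 1.16 and 1.19 kb in induced cells, against 0.665 and 0.713 kb in untreated cells. Log2 ratios were 0.99 at Cd3e, 0.89 at Cd3d, 0.77 at Cd3g and 0.33 at Cd247, beside a median of 0.88.

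On the scale of shares, Cd3g and Cd247 were lower in induced fibroblasts, as were 28.9% of windows, and Cd3e and Cd3d overlapped. By number of peaks Cd3e, Cd3d and Cd3g overlapped, and Cd247 did so with flanks of 10 kb. The exact p of 0.333 for covered kb was 0.363 after adjustment. SMC1 had 1 list per condition and no replicate check, with coverage 1.37 times that of untreated cells at Cd3e and 0.768 times at Cd247. For CTCF, the effect of TCF-1 in DN3 cells (EV minus KO) and in fibroblasts (induced minus untreated) differed by −1563.5 bp at Cd3e and −1828 bp at Cd247. The exact permutation p of that difference was 0.111 and 0.222, where 0.0556 is the smallest possible.

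Among 30 other genes of T cell receptor signalling, 28 had more SMC1 in KO than in EV and 0 less, with a median log2 ratio of 0.67, beside 70.8% of all windows higher and a median of 0.41. Trat1, an adaptor that binds the zeta chain, had 6.02 and 4.66 kb in KO, against 2.32 and 1.38 kb in EV, and Zap70, the kinase that docks on CD3 tails, had 12.7 and 14.4 kb in KO, against 7.09 and 5.74 kb in EV. As shares, 11 were higher and 4 lower, beside 15.8% of all windows higher. CTCF was higher at 12 and lower at 0, beside 42.8% of all windows higher. By share CTCF was higher at 2 and lower at 3, beside 17.2% of all windows higher and 25.3% lower. NIPBL was higher at 12 and lower at 0, beside 26.4% of all windows higher. By share NIPBL was higher at 9 and lower at 4, beside 12.3% of all windows higher. For SMC1 and NIPBL the shares of all windows lower on this scale are not given here. Among those higher in covered kb was Ptcra, the alpha chain of the pre-T cell receptor, with 9.36 and 2.58 kb of NIPBL in KO, against 1.53 and 2.35 kb in EV.

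H3K27ac was higher in KO at 11 of these genes and lower at 13, with a median of −0.06, beside 27.7% of all windows higher, 34.1% lower and a median of −0.02. By share 10 were higher and 11 lower, beside 27.9% of all windows higher, and the share of all windows lower on this scale is not given here. The coreceptor genes were among those higher, with 26.6 and 24.0 kb in KO against 9.92 and 10.7 kb in EV at Cd4. Cd8a had 28.0 and 29.0 kb in KO against 16.4 and 13.8 kb in EV, and Cd8b1 43.6 and 44.2 kb against 28.0 and 29.2 kb. Txk, a kinase of the Tec family, was lower, with 7.88 and 8.95 kb in KO against 20.0 and 21.2 kb in EV, and so was Skap1, an adaptor, with 17.5 and 18.8 kb against 36.8 and 36.3 kb.

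Between the lines, 14 of the 30 had more SMC1 in DN3 cells than in fibroblasts and 5 had less, beside 10.1% of all windows higher. The shares of all windows lower in DN3 cells are not given here, for SMC1 or CTCF on either scale. Counts of lower genes in this comparison are thus not read as a result about the 30. The median log2 ratio of the 30 was 0.39, beside −0.77 over all windows. CTCF was higher at 6 and lower at 1, beside 3.51% of all windows higher. By share CTCF was higher at 15 and lower at 1, beside 19.4% of all windows higher. Cd6, a costimulatory receptor, was among those with less SMC1, with 1.05, 0.974, 0.408 and 1.48 kb in DN3 cells, against 3.21 kb in induced and 5.26 kb in untreated fibroblasts. By share of the list, 25 were higher and 1 lower for SMC1, beside 43.8% of all windows higher.

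Genes were also compared by their window coverage as a share of the list, over the 25 lists. Most like Cd247 was Ptprc, which encodes the phosphatase CD45 and lies on the same chromosome, with a Spearman rho of 0.972. Dcaf17 (0.962) and Scml4 (0.960) followed, and the median over all other genes was −0.21. For Cd3e they were Kcnj8 (0.946), Fstl4 (0.946) and Chdh (0.938), with a median of −0.14. The 25 shares rank antibodies as well as cell types, so these coefficients are a description only.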

How the data were processed

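All 25 samples were ChIP-seq libraries of cells fixed with 1% formaldehyde, prepared by NEBNext Ultra II chemistry and sequenced on a NextSeq 550, per the labels' protocols. Bowtie2, MACS2, bedtools and the build mm10 are named per the submitters' processing notes, while versions, call settings and input controls are not given there or in other sources used here. Each list was called on 1 sample. The CTCF, SMC1 and TCF-1 lists deposited by the authors hold peak positions only, so peak width stood in for strength. The NIPBL and H3K27ac lists add 4 values per peak that the authors deposited: the score, the enrichment as a fold, and p and q as −log10 p-value and −log10 q-value. The −log10 q-value was ranked only within its own list and was not tested between lists. The score, the fold enrichment (a ratio) and the −log10 p-value were not tested.

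Groups came from the labels. Peaks overlapping by at least 1 bp a gene body plus 30 kb (RefSeq, GRCm38.p6) were trimmed to that window, and covered bp were compared over all windows with any coverage by exact 2-sided permutation of the lists, with Benjamini-Hochberg adjustment. Limma (log2 of covered bp + 1000), other flanks, stricter peaks (at least the list's median strength), equal list length, scaling, peak numbers, left-out lists and a replicate block were alternatives. The members, the gene lists and the motifs were chosen with earlier results of these data known. Named genes were the 4 members, neighbours whose bodies overlap their windows, up to 10 of 30 receptor signalling genes per comparison whose lists do not overlap, by largest log2 ratio (some of them are given, and 1 is not reported here), and the 3 genes most like Cd3e and Cd247. Replicate numbers are not stated to pair lists. Tools were R 4.3.3 with limma 3.58.1, bedtools 2.31.1, and Python 3.11.15 with pandas 2.3.3, scipy 1.17.1, numpy 2.4.6 and matplotlib 3.10.9, and the code was tested on simulated data.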

Additional observations from a re-analysis of the deposited data

How the results depend on the processing

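Values are log2 ratios unless called counts. No exact test at the CD3 genes passed 0.05 after adjustment, so an alternative could only turn a direction or, in limma, make a call. Of 258 alternative values of KO against EV, 11 turned direction, as did 0 of 144 for DN3 against fibroblasts and 9 of 81 for induced against untreated fibroblasts. By share of the list CTCF, KO over EV, became −0.27 at Cd3g and −0.18 at Cd247, and SMC1 −0.10 at Cd247. With no flank CTCF at Cd3e was −0.12. At equal list length NIPBL was −0.31 at Cd3e and −0.38 at Cd247. Leaving out 1 list at a time, CTCF, KO over EV, ran from −0.034 to 0.74 at Cd3d, from −0.21 to 0.39 at Cd3g and from −0.080 to 0.50 at Cd247. For induced over untreated fibroblasts, CTCF by share was −0.033 at Cd3d, −0.16 at Cd3g, −0.58 at Cd247 and −0.14 over the cluster, and at Cd247 it was −0.086 with stricter peaks and −0.11 at equal list length. SMC1 was −0.33 at Cd3g with no flank and −0.037 at Cd3g and over the cluster with flanks of 100 kb. Limma passed 0.05 for SMC1, KO over EV, over the cluster (0.56), for H3K27ac over the cluster (0.32), for CTCF, DN3 over fibroblasts, at Cd247 (0.77) and over the cluster (0.76), and for SMC1 there (2.26 and 1.85). No value was possible in 17 cases where a group had no coverage. The cause of each turn was not tested.

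KO-only and EV-only regions were counts of few, and 22 of 48 alternative values were over 1.5 times away. Counts without single lists follow a looser rule and can rise by it alone. KO-only CTCF regions numbered 2 at an overlap of 50%, 0 when merged across 500 bp, and 1 to 3 without single lists, and EV-only ones 0 to 3. KO-only SMC1 regions numbered 9 at an overlap of 50% and 5 to 19 without single lists, and EV-only ones 0 when merged and 2 to 13. KO-only NIPBL regions numbered 1 to 8, and those of H3K27ac 4 to 8, with 1 to 2 EV-only. TCF-1 sites numbered 4 at the cluster and 13 at Cd247 in either list, and 1 to 3 and 7 to 8 in single lists. Sites of Cd247 in both lists numbered 4 when merged across 500 bp, against 2 without merging.

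A replicate block, which pairs lists of the same number, gave 0.29 for CTCF, 0.56 for SMC1, 1.61 for NIPBL and 0.32 for H3K27ac over the cluster, with no direction changed at any gene. Under it H3K27ac at Cd247, which overlapped without it, was higher in KO in both pairs (0.065). Same-numbered lists deviated together by r = −0.19 for CTCF, 0.13 for SMC1, −0.34 for NIPBL and 0.00 for H3K27ac, so pairing is not established. With crossed numbers, chosen after seeing the data, both pairs moved one way in 14318 windows for CTCF (8756 with same numbers) and 10682 for NIPBL (4280 with same numbers).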
